A study of Mus musculus with 30 samples.

Results

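Intermediate cells of mouse chemical reprogramming were compared on day 4 of stage III with and without valproic acid, in 1 bulk RNA-seq library each. The comparison covers all genes at 1 FPKM or more (fragments scaled to transcript length and library depth) in either library, which were 13571 of the 35275 entries of the deposited table. No gene was chosen for its difference. Chemical reprogramming takes mouse embryonic fibroblasts (MEFs) to chemically induced pluripotent stem cells (CiPSCs) with small molecules and no added genes, through a step of cells like those of extraembryonic endoderm (XEN-like cells). The series held 30 samples, of which 14 were bulk RNA-seq libraries. The other 12 bulk libraries used here for reference were MEFs of E13.5 embryos, XEN-like cells, stage II day 12 cells in N2B27 medium or in a medium labelled FBS/KSR, after the serum and serum replacement in it, cells of the same day sorted as OG+PDGFRAlow/-PECAM- or by a Zscan4c reporter, stage III cells on days 6, 15 and 21, a CiPSC line and an embryonic stem cell (ESC) line.

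Both libraries came from the strain labelled C57BL/6J-Tg(GOFGFP)11Imeg/_brcxICR, which carries a GFP reporter transgene, and from total RNA. By the labels' protocols the process runs through stage I medium, replating on day 12, stage II medium from day 16 and stage III medium from day 28 of the process. The label of one names Opt. VPA treatment and that of the other names its absence. The reference libraries share this strain, except the MEFs, whose label reads C57BL/6J-Tg(GOFGFP)11Imeg/RbrcxICR, the ESC line (ICR x ICR) and the Zscan4c reporter cells (129S6/SvEvTac x C57BL/6Ncr), which started from reporter ESCs turned into XEN-like cells. The labels do not give the dose, the span of treatment or the stage II medium behind this pair, and feeder MEFs are used in the N2B27 form of stage II. The control is therefore a culture without the optimised valproic acid treatment, and whether its earlier media held any valproic acid is not given for this pair.

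Valproic acid is a branched short-chain fatty acid that inhibits class I and class IIa histone deacetylases, the enzymes that take acetyl groups off histone tails. Acetylated histones mark open chromatin, and deacetylase inhibitors are used in reprogramming to ease the activation of silent genes. In the process studied, cells of an extraembryonic endoderm type give rise to cells that transcribe genes of the 2-cell embryo, such as the Zscan4 family, before a pluripotent state is reached.

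The whole reads recovered from the FPKM values came to 6601290 in the control library and 8411782 in the valproic acid library, and reached 15294927 in the deepest of the other bulk libraries. The mitochondrial genome gave 2.00% of the control's reads and 2.13% with valproic acid, and the 100 highest entries took 28.3% and 27.5% of the FPKM. At 1 FPKM or more there were 12717 genes in the control and 13009 with valproic acid. As each group is 1 library, differences lack any check by replicates and are given without p-values. Genes named beyond the ranking rule were chosen after their values were seen. The range after a fold is its exact 95% binomial counting interval from the reads, which covers counting error only, as does the floor of 3 reads behind an "at least" fold against 0 reads. In bulk RNA a change in the number of cells of one type cannot be told apart from a change in the RNA of each cell.

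Both libraries carried the markers of an endoderm-like intermediate that had begun to transcribe pluripotency genes. Gata4, an endoderm transcription factor, stood at 354 FPKM in the control and 360 FPKM with valproic acid, and Sox17, another, at 315 and 260 FPKM. Pou5f1, the pluripotency factor known as Oct4, stood at 86.2 and 120 FPKM, whereas Nanog, a factor of the naive state, stood at 0.439 and 0.115 FPKM on 6 and 2 reads. The ESC library held Pou5f1 at 616 FPKM and Sox2 at 232 FPKM, both above the day 4 libraries.

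With valproic acid 783 of the 13571 genes (5.77%) were at least 2-fold higher and 445 (3.28%) at least 2-fold lower than in the control, on the scale of log2(FPKM+1), and 12343 lay within 2-fold. These 2 percentages are the background for every list below. The higher genes were mostly lowly expressed in the control, with a median of 1.68 FPKM there and 6.52 FPKM with valproic acid, and the lower genes went from a median of 7.94 FPKM to 2.15 FPKM. No read was found in the control for 87 of the higher genes, and none with valproic acid for 44 of the lower genes. At 4-fold or more there were 92 higher and 49 lower genes.

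The centre of the distribution was itself above 0. The median log2 difference was 0.117, with quartiles of -0.19 and 0.42, so a list with a median near 0.117 stood where all genes stood. Scaling that centre to 0 by the median of ratios left 629 genes higher and 530 lower. The excess of higher over lower genes therefore shrank with that scaling, and list medians are to be read against 0.117. Among genes named below, Cbx7, Des, Fdft1, H2-K1, Hoxa9, Igf2, Orc1, Slc2a1 and Srxn1 are past 2-fold as deposited and came under it with that scaling, whereas Sparc, Spry1 and Cyp26b1 passed it on the lower side. Predicted genes with names of the Gm, Rik or LOC form made up 18.0% of the higher genes, 15.7% of the lower genes and 8.11% of all genes compared.

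**Figure D1:**
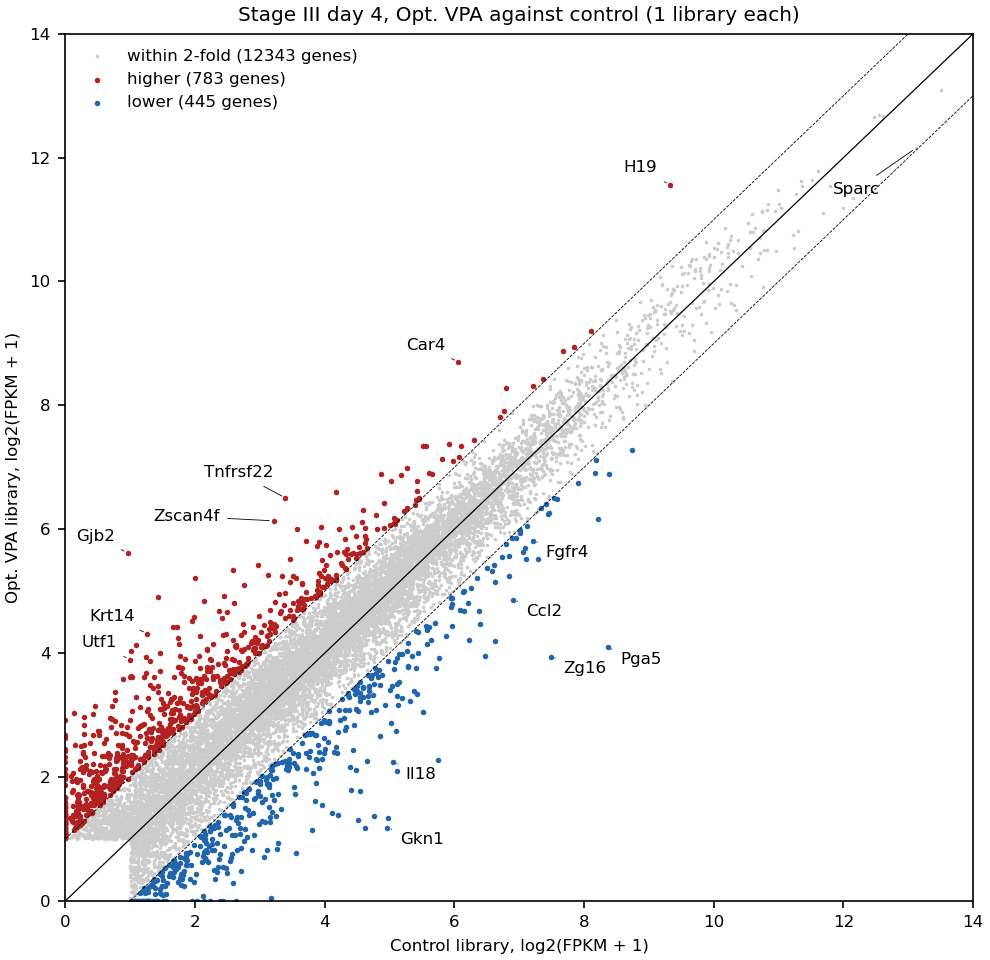
Expression in the control library (horizontal axis) and in the Opt. VPA library (vertical axis), both as log2(FPKM+1), for 13571 genes, each a point. The solid line is equality and the dashed lines are a 2-fold difference. Red points are the 783 higher genes, most of them at low control values, blue points the 445 lower genes, and Gjb2 and Pga5 lie farthest from the lines.

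Of the 51 gene lists examined, the one of 2-cell embryo genes had the highest median difference. Of 22 compared genes of a 2-cell-like list, 14 were at least 2-fold higher with valproic acid and 1 was lower, with a median log2 difference of 1.53 (1.48 with the gene that had 0 control reads set to the floor). The summed level of the list went from 116 FPKM in the control to 302 FPKM with valproic acid. Zscan4f, a zinc-finger gene that marks rare 2-cell-like cells in ESC cultures, stood at 8.25 FPKM in the control and 69.3 FPKM with valproic acid, which was 8.40-fold higher (6.71 to 10.6). Its reads were 84 and 899. All 5 named Zscan4 genes of the list, which lie beside each other on chromosome 7, were higher.

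Zscan4d stood at 2.33 and 18.0 FPKM, 7.72-fold higher with valproic acid (5.06 to 12.3). Zscan4b stood at 1.04 and 11.3 FPKM, and Zscan4e at 0.347 and 5.38 FPKM. Zscan4c, the copy whose promoter drives the reporter used elsewhere in the study, stood lower at 1.52 and 6.77 FPKM, 4.47-fold higher (2.85 to 7.30). The copies are nearly identical in sequence, and no source used here says how reads shared between copies were assigned, so the level of each single copy is uncertain. The promoters of 3 copies are shown to describe their likeness. Most of their bases lie before the start, so the promoters cannot show how reads of the transcripts were assigned. They are RefSeq sequences of build GRCm38.p6, from 250 bases before to 50 bases after the annotated start, with the TATAAA box in capitals.
Zscan4c (chr7:11005495-11005794, plus strand): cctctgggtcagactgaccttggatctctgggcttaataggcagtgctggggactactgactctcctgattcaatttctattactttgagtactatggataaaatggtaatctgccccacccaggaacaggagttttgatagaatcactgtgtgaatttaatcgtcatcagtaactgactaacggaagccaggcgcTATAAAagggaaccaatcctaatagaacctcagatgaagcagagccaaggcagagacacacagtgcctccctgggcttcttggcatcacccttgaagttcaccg
Zscan4d (chr7:11166099-11166398, minus strand): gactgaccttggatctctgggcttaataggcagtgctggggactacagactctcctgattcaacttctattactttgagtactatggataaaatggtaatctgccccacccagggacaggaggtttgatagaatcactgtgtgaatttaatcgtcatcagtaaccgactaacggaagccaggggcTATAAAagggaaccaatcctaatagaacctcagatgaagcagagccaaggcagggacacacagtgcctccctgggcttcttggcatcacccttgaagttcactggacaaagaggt
Zscan4f (chr7:11397665-11397964, plus strand): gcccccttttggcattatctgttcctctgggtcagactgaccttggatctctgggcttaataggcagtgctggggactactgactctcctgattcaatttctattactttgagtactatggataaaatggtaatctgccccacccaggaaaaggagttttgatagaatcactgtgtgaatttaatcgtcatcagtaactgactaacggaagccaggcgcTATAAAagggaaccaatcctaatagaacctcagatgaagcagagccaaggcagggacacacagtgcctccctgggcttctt
The aligned stretches of Zscan4c and Zscan4f were identical at 275 of 277 bases (99.3%), those of Zscan4c and Zscan4d at 281 of 289 (97.2%), and those of Zscan4d and Zscan4f at 259 of 266 (97.4%). TATAAA, searched on both strands, is found in 14.2% of 27025 promoters of this length. A match describes letters only.

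Other genes of the 2-cell programme moved with the Zscan4 copies. Pramef25, of a family of leucine-rich repeat proteins, stood at 2.16 FPKM in the control and 20.5 FPKM with valproic acid, and Tmem92, a membrane protein gene, at 0.842 and 10.9 FPKM. Gm4340 went from 0.697 to 9.30 FPKM, Tcstv1 from 0.703 to 6.51 FPKM, and the ubiquitin protease gene Usp17le from 0.652 to 7.82 FPKM on 7 and 107 reads. Usp17lb had 0 reads in the control and 21 with valproic acid, which was at least 5.49-fold higher. The Usp17l, Tcstv and Pramef genes also belong to families of close copies.

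Not every gene of that programme was higher. Pramel7, expressed in the early embryo and in naive ESCs, stood at 24.5 FPKM in the control and 11.5 FPKM with valproic acid, 2.13-fold lower (1.64 to 2.80). Pramel6 at 2.87 and 2.38 FPKM, the translation factor gene Eif1a at 47.6 and 56.7 FPKM and Sp110 at 1.01 and 2.03 FPKM were within 2-fold. Zfp352, an early embryo gene, stayed under 1 FPKM in both libraries, at 0.231 and 0.847 FPKM, and was not compared.

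In the other bulk libraries Zscan4f stood at 0 FPKM in MEFs and XEN-like cells, 47.4 FPKM in stage II FBS/KSR cells, 103 FPKM in stage II N2B27 cells, and 83.9 and 2759 FPKM in cells negative and positive for the Zscan4c reporter. It stood at 36.1 FPKM on stage III day 6, 1.09 FPKM on day 15 and 0.159 FPKM on day 21. For Zscan4f the valproic acid library on day 4 thus lay between the stage II FBS/KSR and N2B27 values, and the control library lay below both. Zscan4b and Pramef25 with valproic acid also lay between them. Tmem92, Gm4340, Zscan4c and Zscan4d with valproic acid lay below both. Zscan4c stood at 13.1 FPKM in FBS/KSR and 44.3 FPKM in N2B27 cells, and Zscan4d at 28.2 and 48.5 FPKM.

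**Figure D2:**
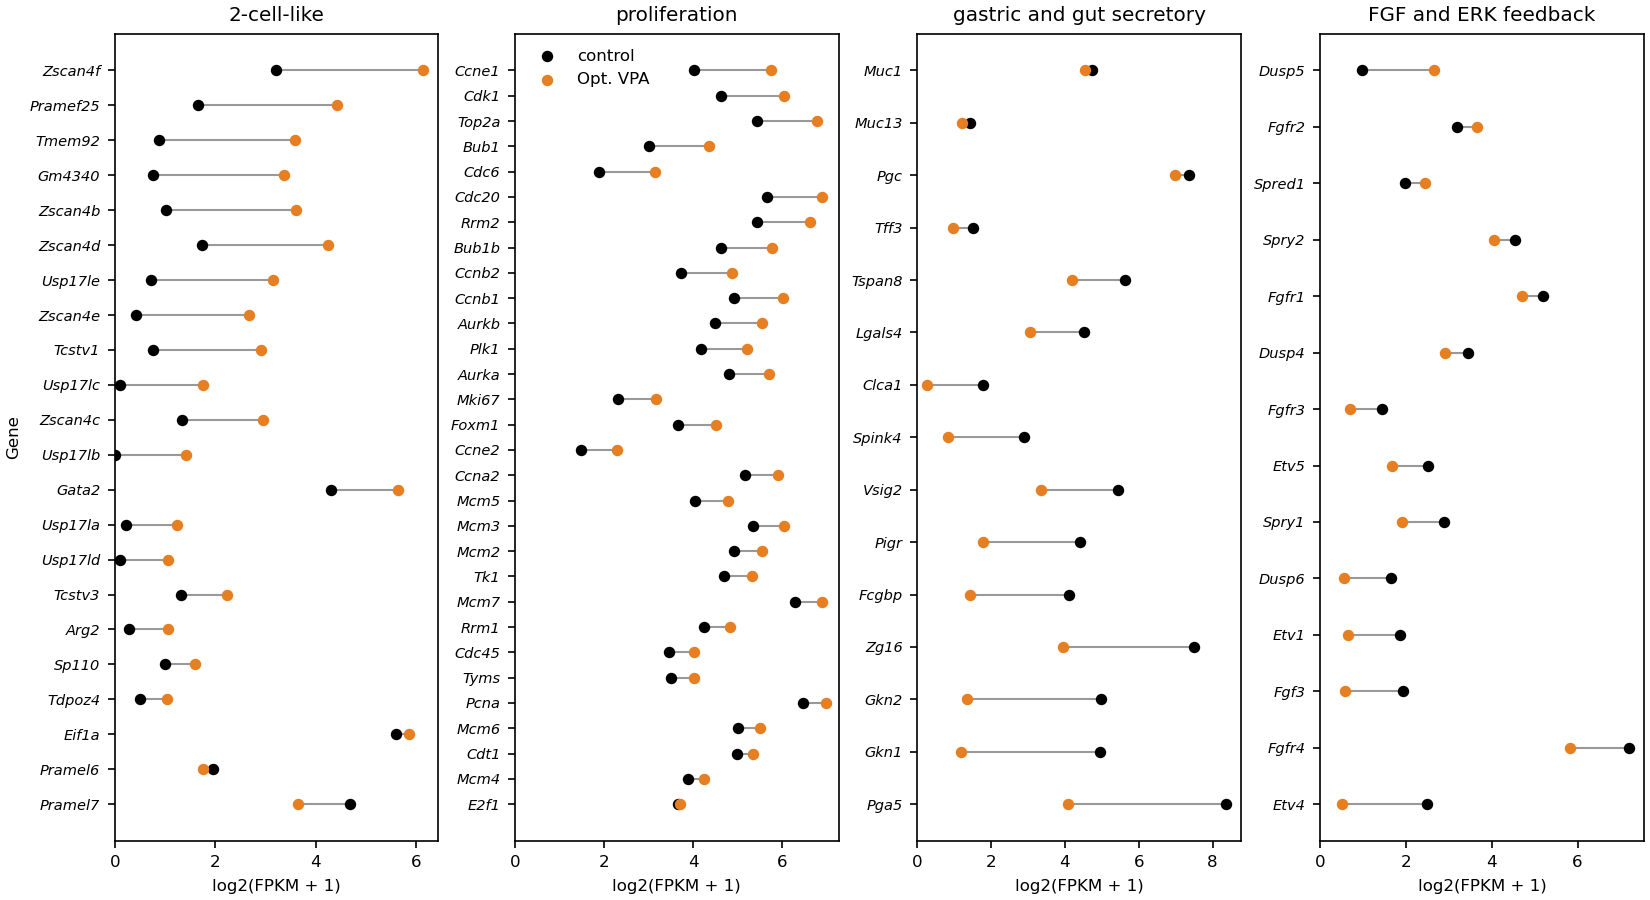
Members at 1 FPKM or more of the 2-cell-like, proliferation, gastric and gut secretory and FGF and ERK feedback lists, with log2(FPKM+1) on the horizontal axis. Black points are the control library and orange points the Opt. VPA library, joined per gene, 1 library each. Valproic acid points lie to the right for 30 of 30 proliferation genes and to the left for 15 of 15 gut secretory genes. The gut secretory list was written after its members had been seen among the largest decreases. The median difference of all genes was 0.117.

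The naive pluripotency genes did not move as a block. Of 24 compared, 2 were at least 2-fold higher and 1 lower, with a median of 0.28. Utf1, a chromatin-bound factor of pluripotent cells, stood at 0.988 FPKM in the control and 13.9 FPKM with valproic acid on 8 and 143 reads, and the interval of its fold ran from 6.93 to 33.1. Tdgf1, the Nodal co-receptor also called Cripto, stood at 43.0 and 88.9 FPKM, and came under 2-fold when the centre of all genes was scaled to 0. Nr0b1, the nuclear receptor gene also known as Dax1, stood at 6.87 and 2.30 FPKM, 2.99-fold lower (1.99 to 4.57).

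The core and upstream factors differed from each other in direction. Pou5f1 was 1.39-fold higher with valproic acid (1.23 to 1.57), while Sox2, its partner, stood at 8.69 FPKM in the control and 4.39 FPKM with valproic acid, 1.98-fold lower (1.47 to 2.67). Esrrb, an orphan receptor of the naive state, was level at 24.7 and 24.5 FPKM. Klf4 stood at 287 and 205 FPKM, Klf5 at 125 and 133 FPKM, and Klf2 at 10.7 and 11.3 FPKM.

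Several further pluripotency genes had higher values but stayed within the 2-fold line on the log2(FPKM+1) scale. For Dppa3 (0.970 to 2.50) and Tdh (0.890 to 1.72) the counting interval of the fold included 1. Dppa5a, an abundant RNA-binding protein gene of ESCs, stood at 577 and 1078 FPKM. Dppa2, a chromatin factor that primes 2-cell genes, stood at 2.80 and 6.41 FPKM, Dppa4, its partner, at 3.43 and 6.12 FPKM, and Dppa3 at 5.77 and 8.89 FPKM. Tbx3 stood at 15.1 and 29.7 FPKM and Tfcp2l1 at 17.5 and 30.6 FPKM, both transcription factor genes of the naive state. Zfp42 stood at 9.26 and 13.4 FPKM, Sall4 at 43.3 and 52.8 FPKM, and Tdh, the threonine dehydrogenase of mouse ESCs, at 9.81 and 12.1 FPKM.

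Lin28a, an RNA-binding protein gene that blocks let-7 maturation, was past that 2-fold line. It stood at 29.2 FPKM in the control and 85.0 FPKM with valproic acid, 2.91-fold higher (2.52 to 3.38). Of 5 compared genes of formative and primed pluripotency, Dnmt3b was higher and Lefty1, an inhibitor of Nodal, was lower, at 4.12 and 1.29 FPKM.

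Cell division genes were higher as a list, while the median of all genes was itself above 0, at 0.117. All 30 genes of a proliferation list had a difference above 0 and 12 were at least 2-fold higher, with none at least 2-fold lower and a median of 0.83. Ccne1, the cyclin that starts DNA replication, stood at 15.2 FPKM in the control and 52.6 FPKM with valproic acid, 3.45-fold higher (2.73 to 4.41). Cdk1, the kinase of mitotic entry, stood at 23.7 and 64.0 FPKM, 2.70-fold higher (2.26 to 3.25).

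The mitotic and replication members ranged widely in size of difference. Top2a, topoisomerase II alpha, stood at 41.9 and 109 FPKM, and the spindle checkpoint kinase gene Bub1 at 7.10 and 19.3 FPKM. The replicative helicase genes were closer, with Mcm4 at 13.8 and 17.8 FPKM and Mcm7 at 76.9 and 117 FPKM, and E2f1, the factor that drives S-phase genes, was level at 11.5 and 12.0 FPKM. In the other libraries Cdk1 ranged from 29.7 FPKM in the OG+PDGFRAlow/-PECAM- cells to 335 FPKM in CiPSCs, so the control library held the lowest Cdk1 value of the 14.

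A list of S-phase and replication-coupled methylation genes, written after values of single genes had been seen, showed the same direction. Of 31 compared, 6 were at least 2-fold higher and none lower, with a median of 0.74. Rfc4, a subunit of the clamp loader, stood at 8.41 and 27.2 FPKM, Hells, a remodeller needed for DNA methylation, at 11.1 and 27.7 FPKM, and Orc1, of the origin recognition complex, at 4.26 and 10.0 FPKM. Cdkn1a, which encodes the cell cycle inhibitor p21, stood at 238 and 343 FPKM, 1.44-fold higher (1.36 to 1.52).

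Ribosome genes were higher by a small and even step. All 28 cytoplasmic ribosomal protein genes were above 0, none reached 2-fold, and their median was 0.48, between 0.16 and 0.80. Rpl5, of the large subunit, stood at 466 and 810 FPKM. A list of ribosome biogenesis genes, added after values had been seen, had a median of 0.46 over 25 genes and none past 2-fold, with Npm1, nucleophosmin, at 363 and 582 FPKM and the helicase gene Ddx21 at 20.9 and 40.2 FPKM.

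Trophoblast genes were also higher. Of 18 compared, 9 were at least 2-fold higher and none lower, with a median of 1.05, and their summed level was 255 FPKM in the control and 488 FPKM with valproic acid. Sct, which encodes secretin, stood at 2.95 and 22.9 FPKM, 7.77-fold higher (4.05 to 16.7). Esx1, an X-linked homeobox gene of the placenta, stood at 6.85 and 42.0 FPKM, 6.13-fold higher (4.66 to 8.20). Plac1 stood at 2.45 and 11.8 FPKM, and Gcm1, the factor of syncytiotrophoblast formation, at 0.521 and 4.03 FPKM.

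The list was not uniform. Cdx2, the trophectoderm homeobox gene, stood at 19.4 and 38.9 FPKM, just under the 2-fold line, whereas Eomes stood at 7.32 and 5.12 FPKM, Elf5 at 3.47 and 2.12 FPKM, and Gata3 at 28.8 and 24.2 FPKM, all below the control. Tpbpa, a marker of the spongiotrophoblast, was listed at 0 in both libraries. Of 36 genes of placental multigene families (prolactins, cathepsins and pregnancy-specific glycoproteins), 5 reached 1 FPKM, and 3 of these were at least 2-fold lower, with the cathepsin gene Ctsll3 at 31.6 and 6.34 FPKM, Prl2c3 at 4.46 and 0.839 FPKM and Prl8a9 at 1.31 and 0.128 FPKM. These families too consist of close copies.

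Germline genes gave 5 higher and no lower genes of 19 compared, with a median of 0.80. Dazl, an RNA-binding protein gene of germ cells, stood at 3.40 FPKM in the control and 11.4 FPKM with valproic acid, 3.37-fold higher (2.57 to 4.47). Tex19.1, which restrains retrotransposons in germ cells and placenta, stood at 21.4 and 58.3 FPKM. Taf7l stood at 1.21 and 3.90 FPKM, and Tex101 at 0.144 and 1.80 FPKM on 1 and 16 reads. Sycp3, of the meiotic chromosome axis, stayed under 1 FPKM in both libraries, at 0.141 and 0.772 FPKM.

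The largest single difference was that of Gjb2, the gap junction gene of connexin 26. It stood at 0.944 FPKM in the control and 48.0 FPKM with valproic acid, 50.9-fold higher (30.7 to 91.2) on 15 and 972 reads. Krt14, a keratin of basal epidermis, stood at 1.40 and 18.9 FPKM, and the interval of its fold ran from 7.75 to 25.8. Arhgef6, an X-linked guanine nucleotide exchange factor gene, stood at 1.12 and 16.4 FPKM, 14.6-fold higher (8.70 to 26.4). Both Gjb2 and Krt14 were also high on stage III day 6, at 45.6 and 244 FPKM, in another library of the series.

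Genes of stratified epithelium did not share that direction, in a list written after Gjb2 and Krt14 had been seen. Of 15 compared, 5 were higher and 4 lower. Krt17 stood at 0.195 and 3.45 FPKM and Sbsn, suprabasin, at 9.08 and 37.1 FPKM, while Krt15 stood at 10.5 and 2.59 FPKM. Trp63, the master factor of stratified epithelium, was at 0 in the control and at 0.233 FPKM with valproic acid, and Krt5 was under 0.1 FPKM in both. The tight junction gene Cldn3 stood at 4.45 and 29.3 FPKM, 6.58-fold higher (4.67 to 9.52), and Cldn4 at 118 and 234 FPKM. Epcam, a general epithelial marker, was level at 200 and 201 FPKM, and of 22 epithelial genes 2 were higher and 1 lower, Rab25 at 9.83 and 3.33 FPKM.

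Other genes among the 20 largest increases encode transporters and enzymes. Car4, a membrane-bound carbonic anhydrase gene, stood at 65.6 FPKM in the control and 415 FPKM with valproic acid, 6.32-fold higher (5.60 to 7.16). Slc13a4, a sulfate transporter gene, stood at 3.39 and 27.8 FPKM, and Wfdc2, a secreted protease inhibitor-like gene, at 17.0 and 95.6 FPKM. Tuba3a, a tubulin gene, stood at 5.02 and 39.7 FPKM, Ppp2r2c, a phosphatase subunit gene, at 1.00 and 11.3 FPKM, and Tmem59l at 1.02 and 11.4 FPKM. For all 20 the counting interval of the fold lay above 1. These genes were chosen by the size of that difference, so the intervals add no separate support.

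Imprinted genes gave 6 higher and no lower genes of 27 compared, against a median of 0.17 that was close to that of all genes. H19, a maternally expressed noncoding RNA, stood at 641 FPKM in the control and 3014 FPKM with valproic acid, 4.70-fold higher (4.57 to 4.84). Igf2, its paternally expressed neighbour that encodes a growth factor, stood at 103 and 223 FPKM. Phlda2, a maternally expressed brake on placental growth, stood at 3.20 and 18.4 FPKM, and the amino acid transporter gene Slc38a4 at 10.8 and 62.9 FPKM.

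These genes lie partly together. Tnfrsf22, a decoy receptor gene on distal chromosome 7 near H19 and Phlda2, stood at 9.51 and 89.8 FPKM, 9.43-fold higher (7.70 to 11.7). Of 17 compared genes of that region, in a list added after values had been seen, 4 were higher and 2 lower, and its other members included Cdkn1c, a cyclin-dependent kinase inhibitor gene, at 60.1 and 48.6 FPKM, and Tnfrsf23, a close relative of Tnfrsf22, at 10.5 and 9.94 FPKM. Kcnq1 had 9 reads in the control and 0 with valproic acid, at least 3.82-fold lower. Mest, on chromosome 6, stood at 22.7 and 68.2 FPKM, and Meg3, of the Dlk1-Dio3 cluster, at 200 and 156 FPKM.

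The RNA of deacetylases, the class of enzyme that valproic acid inhibits, differed little. None of 15 compared deacetylase genes was past 2-fold in either direction, with a median of -0.00. Hdac1 stood at 145 FPKM in the control and 230 FPKM with valproic acid, 1.59-fold higher (1.46 to 1.72), and Hdac2 at 44.2 and 70.1 FPKM, both class I enzymes. Hdac3 was level at 33.4 and 33.8 FPKM and Hdac8 at 3.76 and 3.96 FPKM.

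Other classes were as close. Of class IIa, Hdac4 stood at 13.9 and 9.45 FPKM, Hdac5 at 45.5 and 53.3 FPKM and Hdac7 at 6.28 and 5.88 FPKM, and Hdac9 had 0 and 2 reads. Of class IIb, Hdac6 was level at 64.6 and 64.5 FPKM and Hdac10 stood at 6.51 and 4.25 FPKM, while Hdac11, the single class IV enzyme, stood at 6.53 and 9.50 FPKM. Sirt1, an NAD-dependent deacetylase, stood at 11.8 and 6.62 FPKM, 1.78-fold lower (1.45 to 2.19).

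Among enzymes and readers on the other side of the acetyl mark, Hat1 stood apart. Hat1, which acetylates newly made histone H4 before it is laid on replicated DNA, stood at 31.6 and 109 FPKM, 3.46-fold higher (3.04 to 3.95), the single gene past 2-fold of 15. Brd2, a bromodomain reader, stood at 198 and 151 FPKM, and Crebbp at 9.16 and 6.88 FPKM. Of 19 genes that form complexes with deacetylases, Rcor2 (14.8 and 32.7 FPKM) and Sap30 (3.73 and 8.78 FPKM) were higher, and both came under 2-fold when the centre of all genes was scaled to 0.

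Genes reported in other cells to be induced by deacetylase inhibitors were mostly within 2-fold here. Of 29 compared, 4 were higher and none lower, with a median of 0.30. Stmn2, a neuronal microtubule gene, stood at 0.239 and 3.43 FPKM on 3 and 55 reads, the stress cytokine gene Gdf15 with 58 and 166 reads, Tubb3 at 5.84 and 12.9 FPKM, and the heat shock gene Hspa1b at 7.57 and 16.3 FPKM. The last 3 came under 2-fold when the centre was scaled to 0. H1f0, the linker histone long used as a readout of deacetylase inhibition, stood at 274 and 392 FPKM, 1.43-fold higher (1.38 to 1.49).

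Histone and chromatin genes gave few calls. Of 19 linker and variant histone genes 2 were higher, namely Hist3h2ba with 0 and 28 reads, at least 7.32-fold higher, and H1fx at 1.87 and 5.47 FPKM. Of 27 histone methylation and Polycomb genes, Cbx7, a reader of the Polycomb mark, was higher at 30.1 FPKM with valproic acid, and Ezh2, the Polycomb methyltransferase gene, stood at 13.9 and 26.9 FPKM. Of 16 DNA methylation genes 3 were higher, with the cofactor gene Dnmt3l at 10.1 and 34.4 FPKM, the de novo enzyme gene Dnmt3b at 3.30 and 9.12 FPKM and Uhrf1, which guides maintenance methylation, at 20.2 and 47.7 FPKM. Dnmt1 itself stood at 17.1 and 33.8 FPKM, and Tet1 and Tet2, which oxidise 5-methylcytosine, at 0.676 and 1.33 FPKM and at 2.62 and 2.89 FPKM.

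**Figure D3:**
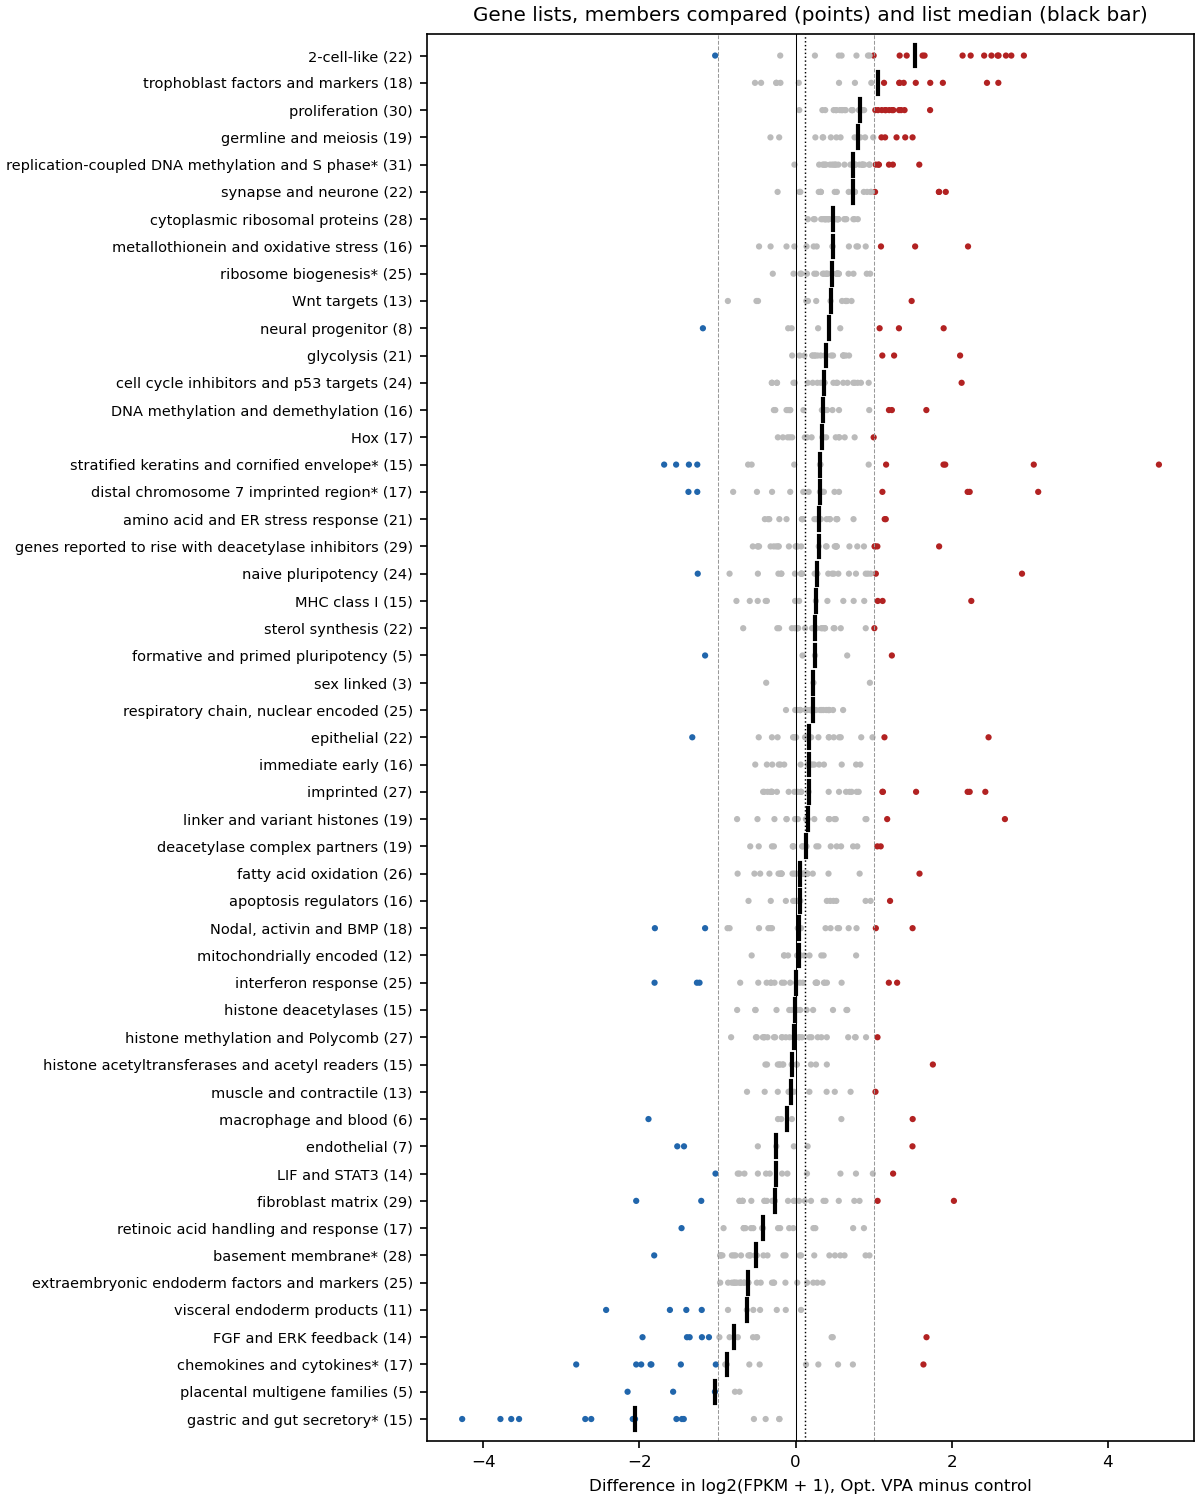
Difference in log2(FPKM+1), Opt. VPA minus control, for each compared member (points) of 51 gene lists, with the number compared in brackets and the list median as a black bar. Red and blue points are at least 2-fold higher and lower, the dotted line is the median of all genes (0.117), and a star marks the 7 lists written after values of single genes had been seen. The 2-cell-like list lies highest and the gut secretory list lowest.

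The genes that were lower with valproic acid were led by secreted products of stomach and gut. The list of these was written after its members had been seen among the largest decreases, so its direction follows from that choice. Of 15 compared, 11 were at least 2-fold lower and none higher, with a median of -2.06, and 17 more were under 1 FPKM in both libraries. The summed level was 919 FPKM in the control and 222 FPKM with valproic acid. Pga5, a pepsinogen gene of the stomach, stood at 328 FPKM in the control and 16.0 FPKM with valproic acid, 20.5-fold lower (17.7 to 23.8) on 3067 and 191 reads.

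The gastrokine genes Gkn1 and Gkn2, which encode proteins secreted by surface cells of the stomach, were in the same group. Gkn1 stood at 30.2 and 1.27 FPKM, 23.8-fold lower (13.7 to 45.4), and Gkn2 at 30.6 and 1.53 FPKM, 20.0-fold lower (10.6 to 42.5). They are neighbours on chromosome 6, and their RefSeq promoters (build GRCm38.p6, the same window as above) are shown because the pair moved together. Capitals mark GATAAG and its reverse complement CTTATC, one form of the site that GATA factors such as Gata4 and Gata6 recognise. Other forms of the site were not searched in any promoter.
Gkn1 (chr6:87350866-87351165, minus strand): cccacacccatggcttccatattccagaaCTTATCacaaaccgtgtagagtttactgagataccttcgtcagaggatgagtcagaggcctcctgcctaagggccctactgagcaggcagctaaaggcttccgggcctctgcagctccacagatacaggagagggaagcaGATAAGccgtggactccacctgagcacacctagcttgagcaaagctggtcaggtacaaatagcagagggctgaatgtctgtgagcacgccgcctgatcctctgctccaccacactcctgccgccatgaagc
Gkn2 (chr6:87373115-87373414, plus strand): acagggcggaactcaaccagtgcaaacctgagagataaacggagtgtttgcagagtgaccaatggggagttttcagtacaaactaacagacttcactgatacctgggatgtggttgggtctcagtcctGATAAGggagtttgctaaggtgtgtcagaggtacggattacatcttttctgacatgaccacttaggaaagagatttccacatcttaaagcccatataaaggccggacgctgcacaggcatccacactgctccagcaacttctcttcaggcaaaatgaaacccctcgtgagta
GATAAG, searched on both strands, was found in both and is found in 7.43% of the 27025 promoters. The Gkn1 window also held TGACTCA (5.17% of all), while TATAAA was in the Gkn2 window. Of the GATA factors, Gata4 was level between the libraries and Gata6 stood at 121 FPKM in the control and 74.2 FPKM with valproic acid, 1.63-fold lower (1.54 to 1.73). Gata2 was higher, at 18.6 and 48.5 FPKM, as was Gata1 at 0.151 and 2.26 FPKM on 1 and 19 reads, and Gata3 was within 2-fold.

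Other gut products were lower by different amounts. Zg16, Fcgbp and Pigr are named as members of the 20 largest decreases, so their direction follows from that choice. Zg16, a lectin of goblet cells, stood at 178 and 14.4 FPKM, 12.4-fold lower (9.79 to 15.9). Fcgbp, a mucus protein, stood at 16.3 and 1.67 FPKM and Pigr, the receptor that carries IgA across epithelia, at 20.2 and 2.46 FPKM. Pgc, another pepsinogen, at 163 and 124 FPKM, and Muc1 at 25.8 and 22.3 FPKM were within 2-fold. Transcripts that define mature gastric and goblet cells, such as Tff1, Cldn18 and Agr2, were listed at 0 in both libraries.

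The remaining largest decreases were of mixed function. Npb, a neuropeptide gene, stood at 52.4 and 3.83 FPKM, the water channel gene Aqp1 at 23.5 and 1.27 FPKM and the potassium channel subunit gene Kcne3 at 26.1 and 1.58 FPKM. Mpeg1, a pore-forming protein gene best known from macrophages, stood at 21.7 and 1.48 FPKM, 14.7-fold lower (11.1 to 19.8). Slc28a2, a nucleoside transporter gene, stood at 22.4 and 2.43 FPKM and Lbp, the binding protein of bacterial lipopolysaccharide, at 44.6 and 7.25 FPKM. Rap1gap, which switches off the small GTPase Rap1, stood at 87.9 and 14.5 FPKM. For all 20 the counting interval of the fold lay on the lower side of 1, which their choice by size of difference made likely.

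Genes of extraembryonic endoderm were lower by less than 2-fold. None of 25 compared was past 2-fold, but 20 were below 0, with a median of -0.61, and their summed level was 28046 FPKM in the control and 16641 FPKM with valproic acid. Sparc, a matrix protein and the most abundant of them, stood at 8898 and 4556 FPKM, 1.95-fold lower (1.93 to 1.98), and passed 2-fold when the centre of all genes was scaled to 0. Col4a2, a chain of basement membrane collagen, stood at 4520 and 2612 FPKM and the laminin gene Lamc1 at 4096 and 2326 FPKM.

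The transcription factors of the list differed among themselves. Foxa2 stood at 134 FPKM in the control and 84.1 FPKM with valproic acid and Foxq1 at 41.9 and 22.5 FPKM, against the level values of Gata4. A basement membrane list, added after values had been seen and sharing 6 members with this one, had 1 gene of 28 past 2-fold, Smoc1 at 33.6 and 8.85 FPKM, and a median of -0.50. Lama5, the laminin chain of other epithelia, stood against that direction at 63.6 and 119 FPKM.

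Genes for products of the visceral endoderm, the outer layer that feeds the early embryo, gave 4 lower and no higher genes of 11 compared. The 4 lower genes encode serum proteins. Members that do not, namely Cyp26a1 (939 and 645 FPKM), Cited1 (310 and 284 FPKM), Ihh (83.2 and 53.6 FPKM), Slc39a8 and Mttp, were within 2-fold. Fgg (1.26 and 0.912 FPKM) and Apoa4 (1.42 and 0.327 FPKM), which also encode serum proteins, were within 2-fold too. Ttr, which carries thyroid hormone, stood at 8.57 FPKM in the control and 0.780 FPKM with valproic acid, 11.0-fold lower (5.28 to 26.5). Fgb, a fibrinogen chain, stood at 5.81 and 1.23 FPKM, Apoa1 at 2.40 and 0.290 FPKM on 13 and 2 reads, and Rbp4 at 22.4 and 9.19 FPKM. Afp, the most used marker of this layer, was under 1 FPKM in both libraries.

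Targets and receptors of fibroblast growth factor (FGF) signalling were more often lower than higher. Of 14 compared genes, 5 were at least 2-fold lower and 1 higher, with a median of -0.79, which was -0.50 for the members at 5 FPKM or more. Fgfr4, an FGF receptor of endoderm, stood at 147 FPKM in the control and 55.4 FPKM with valproic acid, 2.65-fold lower (2.42 to 2.91). Etv4, a transcription factor gene induced by ERK, stood at 4.59 and 0.437 FPKM on 33 and 4 reads, and Etv1, of the same family, at 2.63 and 0.581 FPKM.

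Feedback inhibitors of the pathway pointed both ways. Dusp6, a phosphatase that acts on ERK, stood at 2.17 and 0.468 FPKM, 4.63-fold lower (2.33 to 10.0), and Spry1 at 6.43 and 2.78 FPKM. Dusp5, a nuclear ERK phosphatase, went against them at 0.980 and 5.34 FPKM, 5.44-fold higher (3.21 to 9.86). Fgf3, a ligand, stood at 2.82 and 0.492 FPKM, and Fgf4, Fgf5 and Fgf8 were at or near 0 in both libraries.

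Chemokine and cytokine genes, in a list added after values had been seen, gave 7 lower and 1 higher of 17 compared, with a median of -0.88. Ccl2, which draws monocytes, stood at 119 FPKM in the control and 28.1 FPKM with valproic acid, 4.23-fold lower (3.64 to 4.93), and its neighbours Ccl7 at 53.3 and 14.1 FPKM and Ccl8 at 34.1 and 7.91 FPKM. Il18, a cytokine matured by inflammasomes, stood at 32.2 and 3.73 FPKM, 8.63-fold lower (5.49 to 14.2). Cxcl14 stood against them at 3.74 and 13.8 FPKM.

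Interferon-stimulated genes did not move together, with 2 higher and 3 lower of 25 and a median of 0.01, which was -0.09 when the centre was scaled to 0. The 3 lower genes were the neighbours Ifit1, Ifit2 and Ifit3, and Ifit3 stood at 17.3 and 4.22 FPKM, 4.09-fold lower (3.06 to 5.53). Oas1a stood at 3.86 and 11.0 FPKM, and Bst2, tetherin, at 204 and 469 FPKM. Of 15 genes of MHC class I presentation 3 were higher and none lower, with H2-K1 at 164 and 341 FPKM, the immunoproteasome gene Psmb9 at 1.64 and 4.72 FPKM, and H2-Q7, 1 of several close copies, at 1.58 and 11.3 FPKM.

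Other signalling lists gave few calls. Of 14 genes of the LIF and STAT3 pathway, which holds mouse ESCs in the naive state, Pim1 was higher (8.27 and 21.0 FPKM) and Bcl3 lower (117 and 56.9 FPKM), and Socs3 stood at 388 and 308 FPKM. Of 17 genes of retinoic acid handling 1 was lower, Rdh10, which makes retinal, at 24.5 and 8.27 FPKM, and the median was -0.42, with Cyp26b1 at 32.8 and 16.8 FPKM. Of 18 genes of Nodal, activin and BMP signalling 2 were higher and 2 lower, among them Bmp8b at 0.142 and 2.23 FPKM and Cfc1, the second Nodal co-receptor, at 4.09 and 0.458 FPKM. Of 13 Wnt targets Cdx1 was higher (0.519 and 3.26 FPKM), with Axin2 at 12.9 and 21.9 FPKM and Ccnd1 at 66.9 and 36.2 FPKM.

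Genes of energy metabolism were nearly level. None of 25 nuclear genes of the respiratory chain and none of 12 mitochondrially encoded genes was past 2-fold, with medians of 0.23 and 0.05. Of 21 glycolysis genes 3 were higher, with Slc16a3, which exports lactate, at 12.1 and 55.3 FPKM, 4.59-fold higher (3.78 to 5.60), the glucose transporter gene Slc2a1 at 228 and 493 FPKM and Pfkp at 11.4 and 28.7 FPKM. Of 26 fatty acid oxidation genes Acot1 was higher (9.43 and 30.3 FPKM), and of 22 sterol synthesis genes Fdft1 was higher (40.8 and 83.3 FPKM).

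Stress and death genes had a few members past 2-fold. Of 24 cell cycle inhibitor and p53 target genes 1 was higher, Pmaip1, the death gene also called Noxa, at 7.73 and 37.2 FPKM, 4.81-fold higher (4.00 to 5.81). Nqo1, an NRF2 target, stood at 6.44 and 20.5 FPKM, the metallothionein gene Mt3 at 1.13 and 8.84 FPKM on 4 and 40 reads, and Srxn1, sulfiredoxin, at 66.3 and 143 FPKM, in a list of 16 with 3 higher. Of 21 genes of the amino acid and ER stress response 2 were higher, Ddit4 at 18.2 and 41.7 FPKM and Phgdh, the first enzyme of serine synthesis, at 77.8 and 173 FPKM. None of 16 immediate early genes was past 2-fold, with Fos at 3.05 and 6.21 FPKM and Myc at 2.74 and 4.63 FPKM. Of 16 apoptosis regulators Birc5, survivin, was higher at 15.1 and 36.2 FPKM, a gene also expressed in dividing cells. Of 17 Hox genes Hoxa9 was higher at 1.72 and 4.43 FPKM.

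Markers of other cell types that the cultures could hold, feeder fibroblasts among them, were checked beside these results. Of 29 fibroblast genes 2 were higher and 2 lower, with a median of -0.27 and a summed level of 2303 FPKM in the control and 2046 FPKM with valproic acid, and none was at 0 in either. Col1a1 stood at 476 and 297 FPKM and Thy1, a surface marker of fibroblasts that other cells share, at 28.2 and 118 FPKM. Ccl2 is also on the fibroblast list, and S100a4 stood at 27.3 and 11.2 FPKM, and their part in the lower chemokine values was not tested.

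Blood and vessel markers differed widely in level among themselves. Of 14 macrophage and blood genes 6 reached 1 FPKM, with a summed level of 56.0 FPKM in the control and 50.0 FPKM with valproic acid, and 3 and 5 were at 0. The defining leukocyte gene Ptprc stood at 0.0462 and 0 FPKM, Csf1r at 0.459 and 1.19 FPKM and Cd68, a lysosomal protein gene, at 37.8 and 33.2 FPKM, and Laptm5, another, at 10.1 and 9.74 FPKM. Fcer1g stood at 4.39 and 0.459 FPKM on 15 and 2 reads. The part of such cells in the lower values of Mpeg1 and Il18 was not tested. Of 12 endothelial genes 7 reached 1 FPKM, with a summed level of 75.9 and 35.6 FPKM. They included Cdh5, 3.17-fold lower (2.69 to 3.75) on 500 and 201 reads, Esam at 42.2 and 15.0 FPKM and Tie1 at 0.529 and 3.32 FPKM, while Pecam1, a defining marker, stayed at or under 0.123 FPKM.

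Neuronal genes were somewhat higher. Of 22 synapse and neurone genes 4 were higher and none lower, with a median of 0.73, and the summed level was 153 FPKM in the control and 264 FPKM with valproic acid. Uchl1, a ubiquitin hydrolase gene, stood at 13.8 and 51.8 FPKM and Stmn4 at 0.726 and 5.55 FPKM. Of 17 neural progenitor genes 8 reached 1 FPKM, with Nes, nestin, at 3.16 and 14.5 FPKM, and Sox1, Olig2 and Dcx were at 0 in both. Of 13 muscle and contractile genes 1 was higher, Des at 5.87 and 13.0 FPKM.

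Where the largest changes lay in the rest of the series was then described in libraries that took no part in the comparison. Of the 20 largest increases 15 had less than 1 FPKM in MEFs, as had 14 of the 20 largest decreases. The median of all compared genes in MEFs was 11.3 FPKM, and their share under 1 FPKM was not counted. Of the increases 15 were higher in stage II N2B27 cells than in stage II FBS/KSR cells, and 5 were lower. Car4, for example, stood at 402 FPKM in N2B27 cells and 141 FPKM in FBS/KSR cells, and at 1.43 FPKM in ESCs. Of the 20 largest decreases 19 were lower in N2B27 than in FBS/KSR cells. These counts take differences of any size, and Dnaaf1, counted as lower, stood at 2.30 FPKM in N2B27 and 2.39 FPKM in FBS/KSR cells. Over all 13571 genes the median log2 difference between these cells was 0.04, and shares at 2-fold are given below. Pga5 stood at 2.81 FPKM in N2B27 cells and 167 FPKM in FBS/KSR cells, and at 98.0, 353 and 132 FPKM on stage III days 6, 15 and 21.

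The same genes were looked up in the pluripotent lines. Of the 20 largest decreases 17 were under 1 FPKM in CiPSCs and 16 in ESCs. Among the 20 largest increases 5 were under 1 FPKM in CiPSCs and 4 in ESCs. All compared genes had medians of 9.27 FPKM in CiPSCs and 10.8 FPKM in ESCs. Their share under 1 FPKM was not counted, so these counts lack a background. Zg16 reached 504 FPKM on stage III day 15 and was at 0 in both pluripotent lines. Utf1 was at 290 FPKM in CiPSCs and 131 FPKM in ESCs.

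**Figure D4:**
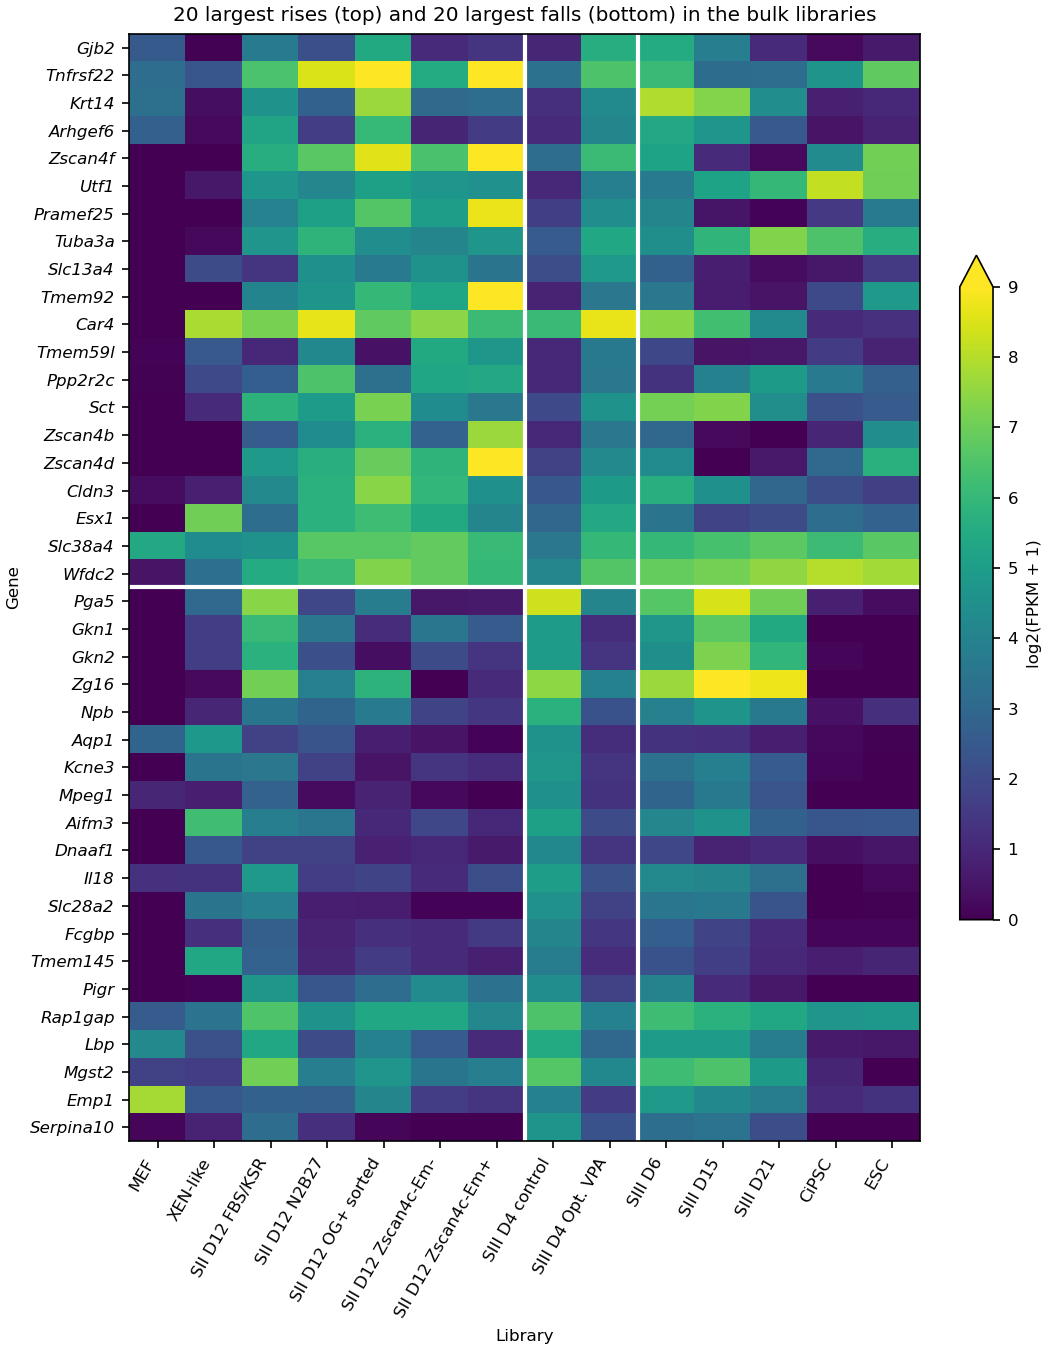
Level of the 20 largest rises (upper rows) and 20 largest falls (lower rows) with Opt. VPA in the 14 bulk libraries, as log2(FPKM+1) in colour, 1 library per column. White lines set off the day 4 pair. Most of the lower rows are dark in the CiPSC and ESC columns, where 17 and 16 of the 20 are under 1 FPKM. The share of all compared genes under 1 FPKM was not counted.

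The contrast between N2B27 and FBS/KSR cells was also described over all called genes. Among the 13571 genes, 9.27% were at least 2-fold higher and 6.36% at least 2-fold lower in stage II N2B27 cells than in FBS/KSR cells, a pair of libraries that shares none with the day 4 pair. Of the 783 genes higher with valproic acid, 306 (39.1%) were higher in N2B27 and 40 (5.11%) lower, and these 306 were 24.3% of all genes higher there. Of the 445 genes lower with valproic acid, 25 (5.62%) were higher in N2B27 and 157 (35.3%) lower, or 18.2% of all genes lower there. Which stage II medium preceded the day 4 libraries is not labelled, so a difference in earlier medium between them and the effect of valproic acid cannot be told apart from these files.

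Later and earlier steps showed other patterns. From stage III day 6 to day 15, 4.21% of the genes were higher and 4.24% lower, against 14.8% and 17.9% of the genes higher with valproic acid and 7.87% and 12.4% of those lower with it. Both directions were thus more frequent in both sets than among all genes. From stage III day 21 to the CiPSC line 3.68% were higher and 13.6% lower, against 15.5% and 11.2% of the higher genes and 2.02% and 41.6% of the lower genes.

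From stage III day 15 to day 21, 0.870% of the genes were higher and 6.90% lower, against 2.81% and 10.1% of the higher set and 2.02% and 23.4% of the lower set. Between cells positive and negative for the Zscan4c reporter 4.97% were higher and 4.60% lower, against 17.6% and 9.58% of the genes higher with valproic acid and 5.62% and 7.87% of those lower with it. From XEN-like to stage II N2B27 cells 15.0% were higher and 7.81% lower, against 48.8% and 7.66% of the higher set and 22.7% and 19.3% of the lower set.

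**Figure D5:**
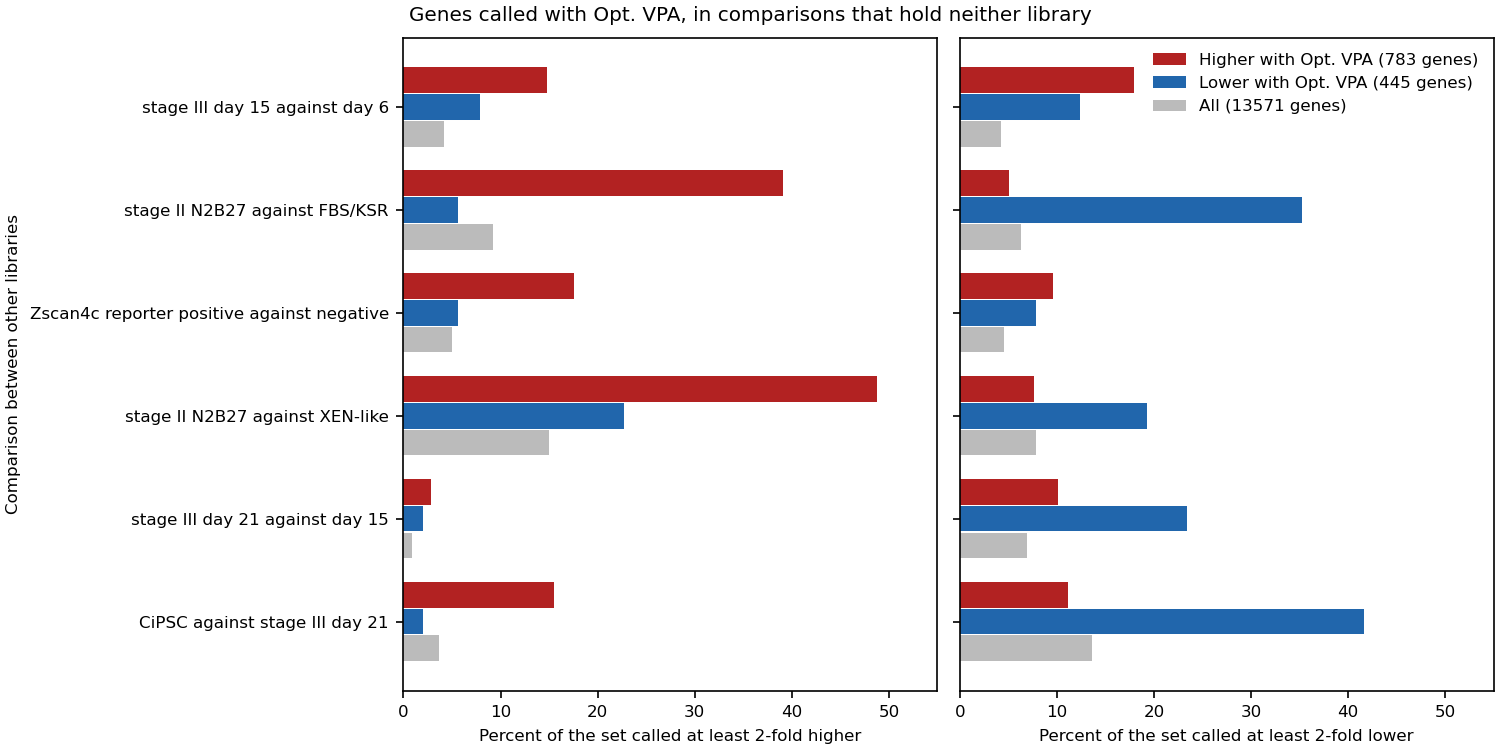
Percent of the genes higher with Opt. VPA (red, 783), lower with Opt. VPA (blue, 445) and of all genes compared (grey, 13571) that were at least 2-fold higher (left) or lower (right) in 6 comparisons between other libraries of the series. Bars start at 0. In N2B27 against FBS/KSR the red bar reaches 39.1% on the left and the blue bar 35.3% on the right.

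Over 16963 genes that reached 1 FPKM in some bulk library, the Spearman correlation between the day 4 libraries was 0.964. The valproic acid library correlated at 0.943 with stage II N2B27 cells and the control at 0.904, while with stage II FBS/KSR cells the values were 0.938 and 0.931. With stage III day 6 they were 0.945 and 0.938, with XEN-like cells 0.896 and 0.890, and with the ESC line 0.808 and 0.760. Each of these 5 values was higher for the valproic acid library, which was also the deeper of the pair. So were its values with every other bulk library, MEFs among them at 0.833 against 0.829. Genes are not independent replicates, so the values describe these libraries only.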

How the data were processed

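Bulk RNA-seq of total RNA was analysed. The authors deposited 1 table of FPKM values for 14 libraries, 1 per condition, and all 14 columns were used. The build mm10 and the tools FastQC, Cell Ranger 2.0.1, Bismark and Bowtie2 are named in the submitters' processing notes, with no role given. No source used here names the aligner, counter, annotation or strandedness of the bulk data, so antisense and overlapping genes and close copies are uncertain. The 12 single-cell and 4 bisulfite samples were not analysed here.

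Genes that reached 1 FPKM in at least 1 of the pair were compared as log2(FPKM+1), Opt. VPA minus control, with a pseudocount of 1, which understates the change of low genes. Calls are at 2-fold. Whole reads were recovered from the steps of the FPKM values, and 99.97% of 19503 values checked were whole within 0.001 base of gene length. Folds are ratios of FPKM without a pseudocount. Their counting intervals are exact 95% binomial (Clopper-Pearson) intervals, and a library at 0 reads was set to a floor of 3 reads in that library. Depth ran from 6601290 reads in the control to 15294927 in the FBS/KSR library, so precision is poorest for genes with few reads. Of 35275 entries, 126 share a name, 27 carry a date as name, and 28396 matched RefSeq by symbol or synonym. Promoters are from RefSeq, build GRCm38.p6.

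Named genes are the 20 largest increases and 20 largest decreases at 10 FPKM or more in either library, leaving out predicted, shared, small RNA and mitochondrial names, up to 4 members of each list with the largest difference, and a set of pluripotency, endoderm and deacetylase genes. The members and lists were chosen with earlier results of these data known, and 7 of the 51 lists were written after single values had been seen. Alternatives tried were pseudocounts of 0.1 and 0.5, no filter, a filter at 5 FPKM, median-of-ratios and trimmed-mean scaling, folds of 1.5 and 3, the counting interval as a further condition, and, added after seeing the data, leaving out mitochondrially encoded entries. The scripts were tested on simulated data. Python 3.11.15, numpy 2.4.6, pandas 2.3.3, scipy 1.17.1 and matplotlib 3.10.9 were used.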

Additional observations from a re-analysis of the deposited data

How the results depend on the processing

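The counts of genes at least 2-fold higher with Opt. VPA and genes at least 2-fold lower with Opt. VPA depended most on the pseudocount, the filter and the fold. They were 1300 higher and 750 lower with a pseudocount of 0.1, 453 and 274 with a filter at 5 FPKM, 2177 and 1253 at 1.5-fold, and 203 and 110 at 3-fold. The 12 other counts stayed within 1.5 times of those reported, among them 735 and 404 where the counting interval had to leave out 1, 642 and 527 with trimmed-mean scaling and 800 and 448 without mitochondrially encoded entries (added after seeing the data). From stage III day 6 to day 15, with a pseudocount of 0.1 the shares called higher and lower were 18.8% and 23.1% of the higher genes and 10.9% and 21.9% of the lower genes. For the higher genes, 18.5% were called higher with the filter at 5 FPKM, and 21.5% lower with median-of-ratios scaling.

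With genes at 5 FPKM or more in any library the Spearman correlations of the control were 0.868 with N2B27, 0.911 with FBS/KSR, 0.847 with XEN-like cells and 0.667 with ESCs, and those of the valproic acid library 0.866 with XEN-like cells and 0.735 with ESCs. List medians near 0 changed sign. Without a filter the deacetylase list had 0.0067 and the interferon list -0.0297. With median-of-ratios and trimmed-mean scaling the medians were -0.0925 and -0.0869 for interferon, -0.0508 and -0.0445 for fatty acid oxidation, -0.0693 and -0.0628 for mitochondrially encoded genes, -0.0387 and -0.0339 for Nodal, activin and BMP, and -0.0503 and -0.0447 for apoptosis. The sex-linked list had -0.38 with the filter at 5 FPKM. The cause was not tested, beyond the scalings' own shift. Of the named genes' alternatives 926 kept their direction and side of 2-fold, 31 lost the call and 22 gained it. The 2-cell-like median ranged from 0.97 to 2.82.

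No paired analysis was possible because each group holds 1 library. No replicate was left out for that reason, and the spread between cultures is unknown. The counting intervals cover reads only. Genes on few reads, such as Prl8a9, have wide intervals.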

Other observations

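Genes called in the same direction often lay beside each other. Of 13195 compared genes that could be placed on a chromosome, 739 were higher, and 199 of these (26.9%) had a higher gene as a direct neighbour among the compared genes, against 10.6% of all placed genes. Of 405 lower genes 75 (18.5%) had a lower neighbour, against 5.95% of all. Runs of adjacent higher genes included the 5 Zscan4 genes from Zscan4b to Zscan4f on chromosome 7, 7 genes around Tcstv1 on chromosome 13, 5 around Tmem92 on chromosome 11 and 5 around Pramef25 on chromosome 4. These hold families of close copies, among which reads may be shared. A run of 12 predicted genes on chromosome 12 was also higher.

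Runs outside such families included H19, Igf2 and Igf2os on chromosome 7, of which Igf2os is antisense to Igf2, so that their reads cannot be told apart without strand. The 4 lower runs of 3 or more genes were Ccl2, Ccl7, Ccl11 and Ccl8 on chromosome 11, Shpk, Trpv1, Trpv3 and Aspa on the same chromosome, Ifit2, Ifit3, I830012O16Rik and Ifit1 on chromosome 19, and the matrix metalloprotease genes Mmp13, Mmp3 and Mmp10 on chromosome 9.

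On the X chromosome 49 of 484 compared genes (10.1%) were higher with valproic acid and 7 (1.45%) lower. The Y-linked genes Eif2s3y, at 1.79 and 4.39 FPKM on 15 and 47 reads, and Ddx3y, at 1.28 and 1.67 FPKM, were low in both libraries. In the other bulk libraries Eif2s3y ran from 17.5 FPKM (XEN-like cells) to 100 FPKM (ESCs), and Ddx3y from 4.57 to 24.3 FPKM. Xist stood at 58.4 and 44.8 FPKM. Whether the sex of the starting embryos differed within the pair or from the other libraries was not tested. On the autosomes the share of higher genes ran from 2.17% on chromosome 16 to 7.34% on chromosome 17.

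Among the 12 other bulk libraries, 148 of the higher genes (18.9%) had their highest level in the Zscan4c reporter-positive cells, against 8.83% of all compared genes. The reporter-negative cells held the highest level of 66 (8.43%, against 4.44%) and stage II N2B27 cells that of 74 (9.45%, against 6.51%). Of the lower genes 72 (16.2%) were highest in stage II FBS/KSR cells, against 4.78% of all, 65 (14.6%) on stage III day 15, against 4.27%, and 58 (13.0%) on day 6, against 4.72%.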
